A study of Homo sapiens with 24 samples.

Results

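The promoters of 40 genes that encode the machinery of regulated exocytosis, by which beta cells release insulin granules, were examined for trimethylation of histone H3 at lysine 4 (H3K4me3), a mark of active and poised start sites. The 40 genes are a named list of SNAREs, synaptotagmins, priming factors, RAB GTPases and their partners, out of 20020 protein-coding genes. Each gene was given the strongest region of the deposited H3K4me3 table, by its mean normalized count, that reaches into the 2 kb on either side of the start of any of its protein-coding transcripts. That region is called its promoter region here. Such a region was found for 39 of the 40 genes (97.5%), beside 14581 of all protein-coding genes (72.8%). The exception was NSF.

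The cells are EndoC-βH3, a human pancreatic beta cell line of wild-type genotype per its labels, derived from fetal pancreas and immortalized with hTERT and SV40 Large T antigen, both of which can be excised by a tamoxifen-inducible Cre recombinase (CreER). H3K4me3 was profiled by MINT-ChIP, in which barcoded chromatin of many samples is pooled before immunoprecipitation, in 4 samples of untreated, non-senescent cells and 4 samples in which 3 weeks of 4-hydroxytamoxifen had induced senescence, each from 500000 cells. All 8 samples are of this single line and carry CreER, and nothing in the labels says that replicates were separate cultures; the labels and the methods give different concentrations of the drug. Another 16 samples, of H3K27me3 and H3K9me3, were not analysed here.

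The level used throughout is the authors' mean normalized count of a region, read as the mean over all 8 samples. It holds no value per sample and no spread, so a level describes the line as a whole, with both states mixed, and no difference between senescent and non-senescent cells is reported. For the same reason neither an error nor a depth can be given beside any level, and small differences between genes cannot be told from the spread between samples. Because long regions collect more reads, levels are compared between genes per kb of region width.

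An insulin granule is brought to the membrane by RAB GTPases and their effectors and held by scaffold proteins near calcium channels. It is then made ready for release by priming factors. Fusion is carried out by a bundle of SNARE proteins, contributed by the granule (VAMPs) and by the plasma membrane (syntaxins and SNAP25). Synaptotagmins and DOC2 proteins sense calcium, complexins clamp and promote the SNARE bundle, and NSF with its adaptor alpha-SNAP, encoded by NAPA, takes the bundle apart afterwards. Most of these genes are shared between neurons and endocrine cells.

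Promoter sequences of 250 bases before to 50 bases after the start were found in the RefSeq promoter table (GRCh38.p14) for 32 of the 40 genes, and those of 6 genes are given here, 5′ to 3′, with every CpG in capitals. SYT11 and SYT4 are shown because their regions are among the highest in level, RAB3C because its region had the most counts per kb, STX1A and VAMP2 because no region overlaps these bases although a region lies close by, and SYN2 because its region had the lowest level.
SYT11, chr1:155859317-155859616, plus strand: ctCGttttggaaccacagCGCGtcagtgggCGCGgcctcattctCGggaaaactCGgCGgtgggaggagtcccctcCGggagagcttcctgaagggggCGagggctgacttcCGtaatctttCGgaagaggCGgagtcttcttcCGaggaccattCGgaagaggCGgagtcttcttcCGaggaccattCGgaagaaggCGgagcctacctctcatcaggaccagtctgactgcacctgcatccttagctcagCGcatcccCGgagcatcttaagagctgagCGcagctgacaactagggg
SYT4, chr18:43277441-43277740, minus strand: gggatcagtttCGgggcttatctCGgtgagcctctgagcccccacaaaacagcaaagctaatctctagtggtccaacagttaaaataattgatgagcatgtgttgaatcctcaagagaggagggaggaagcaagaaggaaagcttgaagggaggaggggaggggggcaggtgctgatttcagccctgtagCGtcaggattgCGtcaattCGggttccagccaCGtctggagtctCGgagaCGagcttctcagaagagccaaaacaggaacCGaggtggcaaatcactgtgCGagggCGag
RAB3C, chr5:58582825-58583124, plus strand: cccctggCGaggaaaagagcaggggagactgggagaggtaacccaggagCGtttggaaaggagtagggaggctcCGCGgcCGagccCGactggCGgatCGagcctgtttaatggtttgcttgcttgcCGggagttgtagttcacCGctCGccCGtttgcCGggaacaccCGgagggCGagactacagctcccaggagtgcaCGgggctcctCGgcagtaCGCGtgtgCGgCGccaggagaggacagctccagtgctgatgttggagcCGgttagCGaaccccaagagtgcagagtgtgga
STX1A, chr7:73719620-73719919, minus strand: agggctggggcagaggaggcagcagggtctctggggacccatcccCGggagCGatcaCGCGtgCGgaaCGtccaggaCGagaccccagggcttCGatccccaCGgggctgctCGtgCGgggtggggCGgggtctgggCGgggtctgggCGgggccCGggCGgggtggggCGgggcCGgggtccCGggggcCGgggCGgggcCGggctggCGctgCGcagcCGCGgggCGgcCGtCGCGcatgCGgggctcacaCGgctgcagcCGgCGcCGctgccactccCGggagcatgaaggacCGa
VAMP2, chr17:8162899-8163198, minus strand: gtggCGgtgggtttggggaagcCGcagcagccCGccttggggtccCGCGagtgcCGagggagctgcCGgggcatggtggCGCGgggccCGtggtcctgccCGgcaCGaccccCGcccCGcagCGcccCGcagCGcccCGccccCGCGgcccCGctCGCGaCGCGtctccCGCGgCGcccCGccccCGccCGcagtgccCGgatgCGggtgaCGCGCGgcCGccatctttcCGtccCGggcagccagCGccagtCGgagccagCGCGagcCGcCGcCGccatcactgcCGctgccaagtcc
SYN2, chr3:12004138-12004437, plus strand: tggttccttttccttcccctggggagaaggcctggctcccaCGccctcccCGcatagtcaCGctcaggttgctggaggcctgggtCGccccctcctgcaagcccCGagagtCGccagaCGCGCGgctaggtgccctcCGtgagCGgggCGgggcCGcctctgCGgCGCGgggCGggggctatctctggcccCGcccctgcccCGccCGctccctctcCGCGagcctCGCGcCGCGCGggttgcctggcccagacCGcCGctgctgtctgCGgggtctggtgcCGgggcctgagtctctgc
The 6 promoters differ widely in composition. The SYT4 promoter holds 11 CpGs and is 53.3% G or C, whereas that of VAMP2 holds 47 CpGs at 80.7%. SYT11 has 22 CpGs, RAB3C 23, SYN2 31 and STX1A 37. Promoters of SNAP25, SYT7, SYT13, DOC2A, DOC2B, CPLX1, CADPS2 and RIMS2 are named only.

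The exocytosis genes ran from percentile 1.15 to percentile 98.2 of all genes by promoter level, and their median was close to that of all genes. Their median level was 49.7 (quartiles 27.4 and 93.6), beside 49.3 (21.6 and 88.6) over all genes with a region. Of the 39 genes, 20 lay above that gene median (all genes, 50.0%), and 7 lay in the top 10% of genes by level (all genes, 10.0%), namely SYT11, STX3, SYT4, SNAP25, RAB3C, CADPS and UNC13B. The highest level was that of SYT11 (226) and the lowest that of SYN2 (1.72), a 131-fold range. Per kb of region the range was 14.6-fold, from 3.44 counts per kb at SYN2 to 50.3 at RAB3C, and 17 of the 39 genes exceeded the gene median of 19.0 counts per kb (all genes, 50.0%), with a median of 18.2 among the exocytosis genes. By count per kb only 2 of the 39 genes, RAB3C and SNAP23, lay in the top 10% of genes (all genes, 10.0%), and STX3 lay at percentile 51.1. Levels under 10 were found for SYN2, DOC2B, CPLX1 and SYT9. The highest of these 4, SYT9 at 9.88, lay at percentile 13.3 of all genes with a region, so such levels were not rare among all genes.

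**Figure D1:**
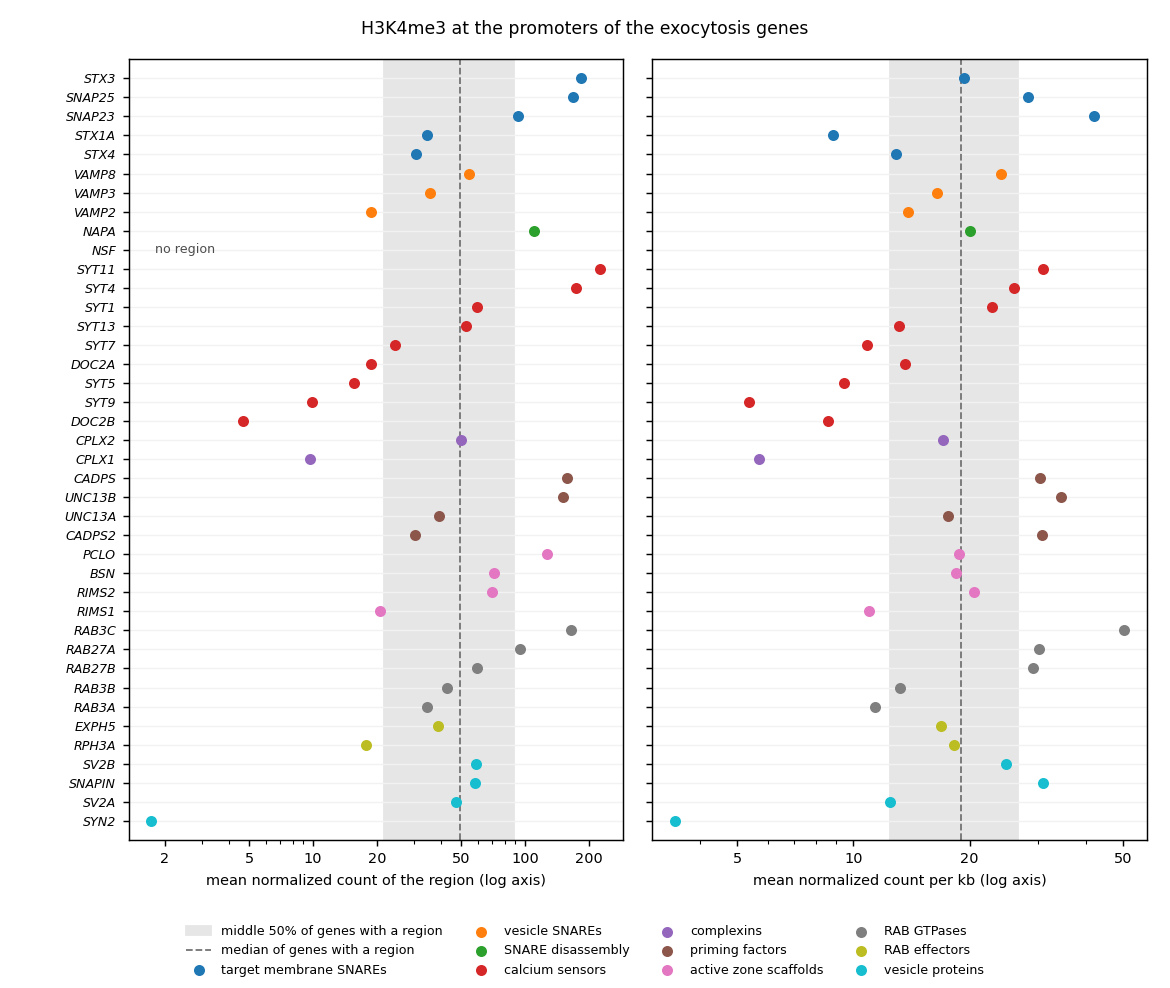
Promoter H3K4me3 of each exocytosis gene, grouped by role, as the mean normalized count of its promoter region (left, log axis) and as the count per kb of region width (right, log axis); each point is a single mean over both states with no error available, the grey band spans the middle 50% of all genes with a region and the dashed line their median. SYT11 is the highest on the left at 226, RAB3C the highest on the right at 50.3 counts per kb, SYN2 the lowest on both, and NSF has no region.

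The plasma membrane SNAREs ranged from some of the highest levels of the list to levels below the gene median. STX3, a syntaxin of granule fusion, had a level of 183 over a region 9499 bp wide (chr11:59754042-59763541), and SNAP25, the main partner of syntaxin 1A in neurons and beta cells, a level of 169 over 5952 bp (chr20:10216187-10222139). SNAP23, the broadly expressed relative of SNAP25, had a level of 92.7 in only 2211 bp (chr15:42494762-42496973). Per kb the order was different, with 41.9 counts per kb at SNAP23, 28.4 at SNAP25 and 19.3 at STX3. STX1A, the syntaxin best known from regulated exocytosis, had a level of 34.3 and STX4, a syntaxin also used in constitutive secretion, 30.7. Those 2 were the lowest of the 5 genes per kb as well, at 8.83 counts per kb for STX1A and 12.9 for STX4, which put STX1A at percentile 12.8 of all genes by count per kb.

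The SNAREs of the granule membrane lay lower than SNAP25 and SNAP23 on both scales. VAMP8, a broadly expressed vesicle SNARE, had a level of 54.2 and 24.1 counts per kb. VAMP3, also called cellubrevin, had 35.7 and 16.5 counts per kb. VAMP2, the main granule SNARE of beta cells and neurons, had the lowest level of the group, 18.8, in 1356 bp (chr17:8161154-8162510), or 13.9 counts per kb. The VAMP2 region also counts as the promoter region of an overlapping gene known only by an identifier, so its reads cannot be assigned to either gene.

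NAPA had a level of 109.9 over 5496 bp (chr19:47511034-47516530), or 19.996 counts per kb. For NSF, the ATPase that works with it, no region lay within 2 kb of any start. The only region inside the NSF gene had a level of 25.96 (chr17:46725848-46728530) and was centred 136520 bp downstream of its canonical start. The bases around the NSF start are not unique in the genome. Of all 24-base stretches in the 2 kb on either side of it, 99.8% were present more than once in the 194 primary sequences of hg38, with a median of 2 copies, and a median of 5 when its 261 alternate sequences were counted. No other gene of the list had a median above 1 in the primary sequences, where the share of repeated stretches ran up to 45.8% (SNAPIN). For DOC2B the share rose from 2.94% in the primary sequences to 95.1% with the alternates. How reads with several matching places were treated is not given in the sources used here, and the part of repeated sequence in the absent NSF region and in the low DOC2B level was not tested.

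Among the synaptotagmins, SYT11 and SYT4, which are classed as lacking calcium binding in their first C2 domain, had the highest levels and counts per kb. SYT11 had 226 (chr1:155855953-155863240, percentile 98.2 of genes), in a region that it shares with the opposite gene GON4L. SYT4 had 173 (chr18:43273187-43279816, percentile 95.5), in a region that was the promoter region of no other protein-coding gene. SYT1, the fast sensor of synaptic vesicles, had a level of 59.3 and SYT13, an atypical family member found in islets, 52.5. SYT7, the high-affinity sensor that is prominent in beta cells, had 24.4. SYT5 had 15.6 and SYT9, another sensor described in insulin secretion, 9.88 (percentile 13.3). Per kb the values were 31.1 counts per kb at SYT11, 26.1 at SYT4 and 22.8 at SYT1, followed by 13.1 at SYT13, 10.9 at SYT7, 9.45 at SYT5 and 5.35 at SYT9. The DOC2 proteins are high-affinity sensors of spontaneous and slow release. DOC2A had a level of 18.7 and 13.6 counts per kb, DOC2B a level of 4.67 in 543 bp (chr17:181742-182285) and 8.61 counts per kb.

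Of the complexins, CPLX2, the form known from endocrine cells, had a level of 49.7 and 17.1 counts per kb, and CPLX1, a mostly neuronal form, had 9.70 and 5.67 counts per kb. The priming factors held the highest median per kb of any role with more than 1 gene with a region, 30.6 counts per kb. CADPS, which primes dense-core granules, had a level of 158 (chr3:62869080-62874284) and its relative CADPS2 30.4, but the 2 regions had nearly the same count per kb, 30.4 for CADPS and 30.8 for CADPS2, since the CADPS2 region is only 985 bp wide. UNC13B, which encodes Munc13-2, had a level of 150.3 and 34.5 counts per kb. UNC13A, which encodes Munc13-1, had 39.3 and 17.6 counts per kb.

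The scaffolds lay close together per kb, apart from RIMS1. PCLO (Piccolo) had the widest region of the group, 6774 bp (chr7:83157655-83164429), with a level of 127 and 18.8 counts per kb. Its relative BSN (Bassoon) had 71.5 and 18.4 counts per kb. RIMS2, the main RIM of beta cells, had 70.02 and 20.5 counts per kb, in a region also assigned to a gene known only by an identifier. RIMS1, the RIM best known from synapses, had a level of 20.7 and 10.97 counts per kb.

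The RAB GTPases, which bring granules to the membrane, included the region with the most counts per kb. RAB3C had a level of 164 in 3256 bp (chr5:58581585-58584841), and its 50.3 counts per kb placed it at percentile 98.2 of all genes. RAB27A, the GTPase that tethers insulin granules, had 94.4 and 30.3 counts per kb, in a region shared with PIGB and PIGBOS1. RAB27B had 59.2 and 29.3 counts per kb. RAB3B and RAB3A lay lower on both scales, at 42.8 and 13.2 counts per kb for RAB3B and at 34.4 and 11.4 counts per kb for RAB3A, the form most studied in neurons and beta cells. The effectors that link these GTPases to the membrane were both below the gene median. EXPH5 (exophilin 5, or Slac2-b) had 38.7 and 16.8 counts per kb, and RPH3A (rabphilin) 17.7 and 18.2 counts per kb.

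The remaining proteins of the vesicle were marked unevenly. SV2B had a level of 58.9 and SV2A, a transporter-like vesicle glycoprotein, 47.4, whereas per kb SV2B had 24.8 and SV2A 12.5. SNAPIN, a partner of the SNAP25 bundle, had 57.9 and 31.0 counts per kb. SYN2, a synapsin that ties vesicles to the cytoskeleton, had 1.72 in 500 bp (chr3:12002945-12003445), the width of 37.1% of all regions in the table, and lay at percentile 1.15 of genes by level.

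The position of the mark relative to the start site differed among the genes. In 30 of the 39 genes the promoter region covered an annotated start (76.9%), beside 76.5% of all genes with a region. In the other 9 it lay to the side, at 24 bp from the nearest start for CADPS2, 93 bp for DOC2B, 422 bp for VAMP2, 444 bp for STX1A, 498 bp for SYT7, 708 bp for CPLX1, 745 bp for CADPS, 746 bp for RAB3B and 943 bp for SYN2. In 3 of these genes the canonical start lay in a gap between a pair of regions. At STX1A a region of level 2.44 ended 288 bp before the start, and the main region of level 34.3 began 482 bp after it. At SYT7 the weak upstream region had a level of 3.06 and ended 416 bp before the start, and the main region began 748 bp after it. At CADPS2 the order was turned, with the stronger region, of level 30.4, ending 323 bp before the start and a region of level 17.8 beginning 146 bp after it. RIMS2 also had a region on each side, of level 46.8 upstream and 70.02 downstream, the latter beginning 11 bp after the canonical start. At CADPS and RAB3B the canonical start was itself covered, by regions of level 30.3 and 4.90, and the stronger region began 1132 bp downstream at CADPS and 746 bp downstream at RAB3B.

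**Figure D2:**
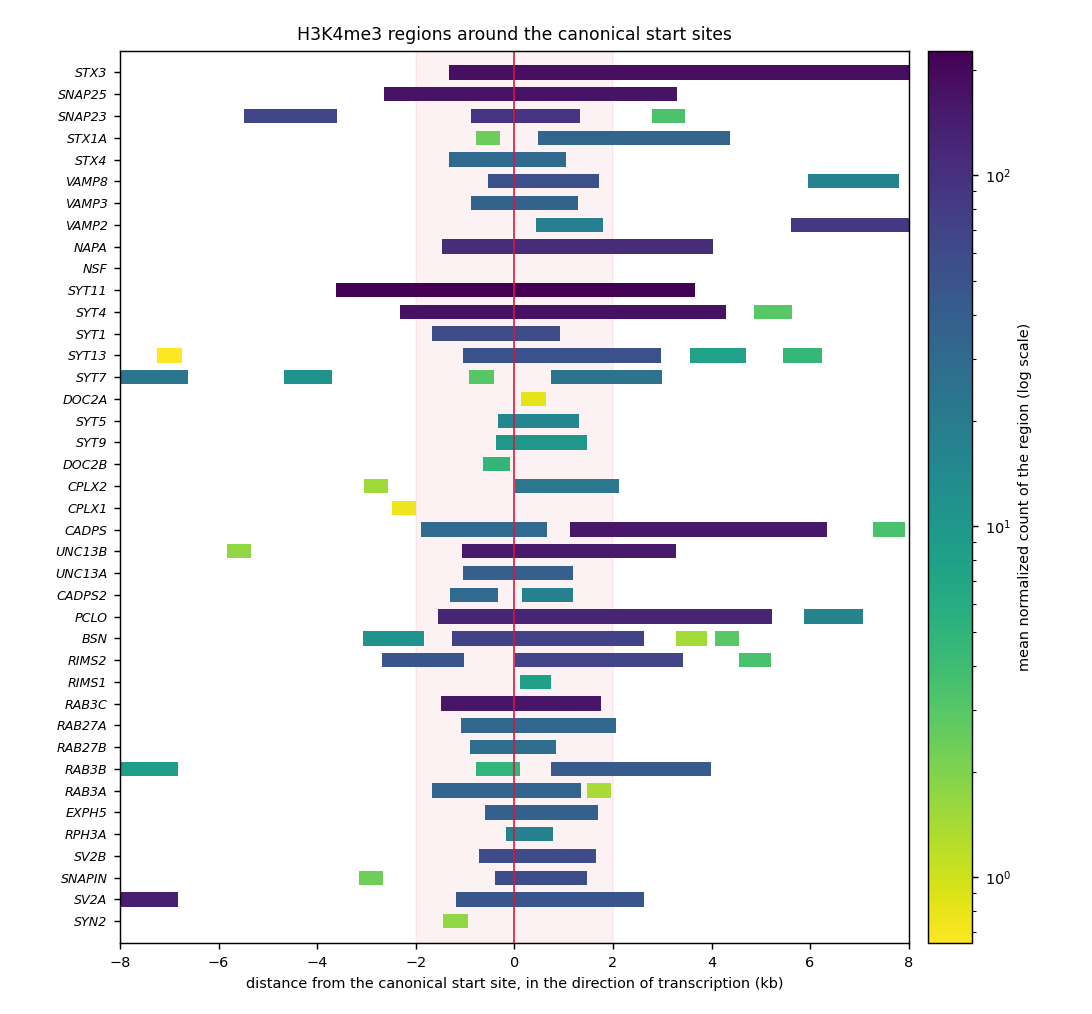
All H3K4me3 regions within 8 kb of the canonical start of each exocytosis gene, drawn to scale in the direction of transcription (x axis in kb, red line at the start, pale band 2 kb either side) and coloured by their mean normalized count on a log scale. The canonical start itself is uncovered at STX1A, VAMP2, SYT7, DOC2A, DOC2B, CPLX1, CPLX2, CADPS2, RIMS1, RIMS2 and SYN2 (by only 3 bp at CPLX2), bars are cut off at the edges of the plot, and NSF has none.

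Promoters whose 300 RefSeq bases were missed by a nearby region were rich in GC. Of the 32 genes with a sequence, 25 were overlapped, with a median GC content of 63%, and 7 were not. For RAB27A and SV2A the listed sequence belongs to a start 18891 bp and 10853 bp downstream of the canonical one, with no region near, and for NSF there was no region near either. The remaining 4, STX1A, VAMP2, RIMS1 and SYN2, had a region within 2 kb that missed these bases, and their GC content was 68.3 to 80.7% with a median of 77.2%. In the sequences above, STX1A and VAMP2 show this as long runs of G and C with 37 and 47 CpGs. Across all 15344 genes with a sequence, the share of those with a region near that were overlapped was highest at intermediate GC content and lower at both ends. It was 73.8% under 40% GC, 78.2% at 40 to 50%, 90.7% at 50 to 60% and 92.7% at 60 to 70%. Above that it was 85.1% at 70 to 75%, 67.2% at 75 to 80% and 41.4% at 80% and above. In the same range of GC content, the promoters of STX3 (75.3%) and BSN (76%) were overlapped. The part of GC content in these gaps was not tested.

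**Figure D3:**
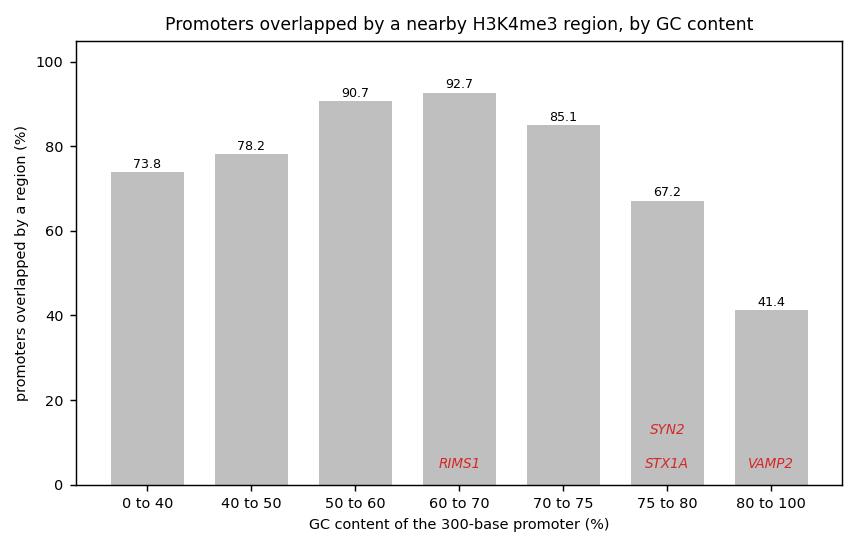
Share of genes whose 300-base promoter is overlapped by an H3K4me3 region (y axis, percent of genes that have a region within 2 kb of the start), by the GC content of that promoter (x axis, percent); red names mark the bin of the 4 exocytosis genes whose promoter is missed. The share rises from 73.8% under 40% GC to 92.7% at 60 to 70% and falls to 41.4% at 80% and above, and VAMP2 lies in the last bin.

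Many exocytosis genes have several start sites, and the mark was not always strongest at the canonical one. Starts of protein-coding transcripts within 1000 bp of each other were joined, which gave 97 start groups, of which 54 had a region within 2 kb and 43 had none. A single start group was annotated for 18 genes and 2 or more for 22. The strongest region was at the canonical start in 33 of the 39 genes and at another start in 6. The same count was not made over all genes, so whether 6 of 39 is unusual cannot be told. All 39 genes had a region within 2 kb of the canonical start group, which for CPLX1 was a region of level 0.747 that ended 1992 bp before the start, at the edge of the window.

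DOC2A and CPLX1 had almost no mark near their canonical start. At DOC2A the canonical start group, which holds 8 of 9 protein-coding transcripts, had a region of level 0.830 in 500 bp (chr16:30010386-30010886), whereas the start of DOC2A-217, 10268 bp upstream, had a level of 18.7 (chr16:30020764-30022138). That upstream region is also the promoter region of C16orf92, so the 22.6-fold ratio cannot be assigned to DOC2A alone. At CPLX1, where the canonical start had only that 500 bp region at the edge of its window, the start of CPLX1-202, 21221 bp downstream, had a region of level 9.70 at 708 bp from it. At CPLX2 the start of CPLX2-201 and CPLX2-210, 75268 bp upstream, had 49.7 against 22.1 at the canonical start. Per kb this was 17.1 against 10.4 counts per kb.

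Both RAB27 genes were marked more strongly at their upstream start. RAB27A had a level of 94.4 at RAB27A-204, 29300 bp upstream, against 32.4 at the canonical start, or 30.3 against 10.3 counts per kb. That upstream region is the one shared with PIGB and PIGBOS1. RAB27B had a level of 59.2 at RAB27B-202, 110617 bp upstream, against 27.4, or 29.3 against 15.6 counts per kb. Its upstream region was the promoter region of no other protein-coding gene. RIMS1 had 20.7 at RIMS1-211, 296202 bp inside the gene, against 7.99 at the canonical start, but per kb the order was the opposite, 10.97 against 12.7 counts per kb.

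In the other 5 genes with separate regions at more than 1 start, the canonical start was the stronger. SNAP23 had 92.7 at its canonical start and 67.6 at a start 4390 bp upstream, and VAMP8 54.2 and 51.7 at a start 16024 bp upstream. For VAMP8 the 2 starts were nearly equal per kb too, at 24.1 and 24.4 counts per kb. PCLO had 127 and 32.0 at a start 212136 bp downstream. SYT1 and RPH3A had only traces at their distant starts, with 1.48 at a start of SYT1 and 1.51 at a start of RPH3A. Whether the regions at these other starts also serve neighbouring genes was not examined, so their reads cannot be assigned to these genes alone.

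**Figure D4:**
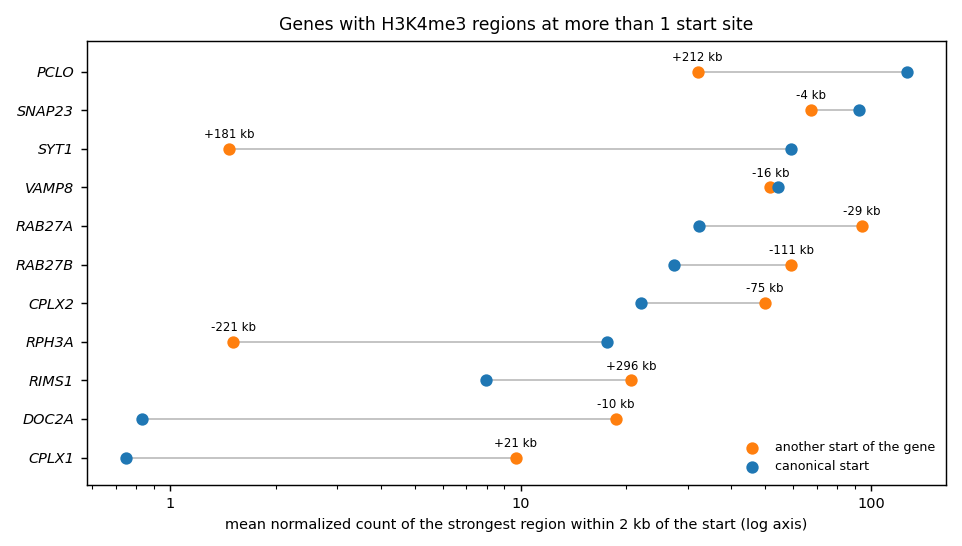
The 11 exocytosis genes with different H3K4me3 regions at 2 or more start groups, with the mean normalized count of the strongest region within 2 kb of the canonical start (blue) and of another start (orange, labelled with its distance in kb, negative upstream) on a log axis. In 6 genes the orange point lies to the right, from RIMS1 at 20.7 against 7.99 to DOC2A at 18.7 against 0.830.

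The width of a region rose with its level across the exocytosis genes (Pearson r = 0.77 with the log2 level, Spearman rho = 0.83, n = 39 genes) much as across all genes (r = 0.76, rho = 0.87, n = 14581). These values describe genes of the same pooled libraries, which are not independent replicates, and a wider region holds more reads by construction. Regions of 5 kb or more were found at 7 of the 39 genes (all genes, 9.10%), which were STX3, SNAP25, NAPA, SYT4, SYT11, CADPS and PCLO. Each gene was therefore also set beside the promoters of other genes with a level within 0.32 of its own on the log2 scale, of which there were 159 to 2424. Against these, 22 genes had a wider region than the median and 16 a narrower one, with a median ratio of 1.12.

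Single genes stood further out. Among promoters of similar level, STX1A was at percentile 98.4 of width, with 3888 bp against a median of 2163 bp, STX3 at 98.2 with 9499 bp against 5312 bp, and SYT9 at 97.95 with 1847 bp against 992 bp. CPLX1 (percentile 96.1) and PCLO (95.8) completed the 5 genes in the widest 5%. At the narrow end, CADPS2 was at percentile 3.72, with 985 bp against 2006.5 bp, SNAP23 at 6.05 with 2211 bp against 3520.5 bp, and RAB3C at 10.1 with 3256 bp against 4888 bp. At similar level a wider region has fewer counts per kb by construction, so these percentiles largely restate the counts per kb given above. More than 1 region in the windows was found for 19 of the 39 genes (48.7%), against 37.1% of all genes with a region. The windows of all starts of a gene were pooled, so distant starts add regions, and the number of starts was not matched.

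**Figure D5:**
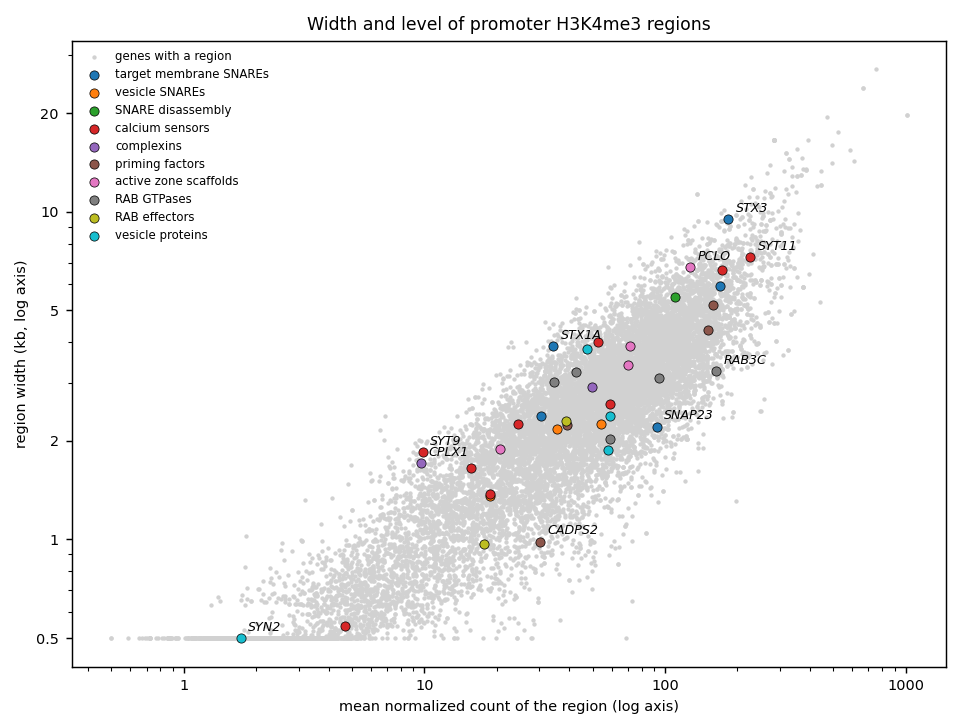
Width of the promoter region (y axis, kb, log axis) against its mean normalized count (x axis, log axis) for all genes with a region (grey) and the exocytosis genes (coloured by role). STX1A, STX3, SYT9, CPLX1 and PCLO lie along the upper edge of the cloud, and CADPS2, SNAP23 and RAB3C along the lower edge.

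Base composition of the regions ran against their level. The GC content of the exocytosis regions had a median of 52.5%, beside 51.4% over all genes, and went from 35.7% at SYT4 to 66.2% at SYT5. Across the 39 genes the log2 level and the GC content had r = -0.51 and rho = -0.60, and across all genes r = -0.40 and rho = -0.47. The log2 count per kb and the GC content had r = -0.46 and rho = -0.56 across the 39 genes. The count per kb was itself higher in wider regions (r = 0.36, rho = 0.39 with width, and r = 0.41, rho = 0.47 across all genes). GC content and width are measured on the same region and are not independent of each other. Beside promoters of similar level, 23 of the exocytosis regions were richer in GC and 16 poorer, with a median difference of 1.19 percentage points, and 15 had a higher and 24 a lower ratio of observed to expected CpG, with a median difference of -0.0655. SYT4 and PCLO were the most AT-rich for their level, at percentiles 0.759 and 1.78 of GC content. RAB27B followed at percentile 5.21 and CADPS at 6.15, and NAPA and UNC13A were at the other end, at percentiles 94.7 and 94.5.

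The 300-base promoters were searched on both strands for short motifs. TATAAA was in none of the 32 exocytosis promoters, beside 9.41% of all 15344, and CCAAT was in 9 (28.1%, all genes 36.6%). GGGCGG, the core of the GC box, was in 24 (75%, all genes 61.8%), including STX1A and VAMP2 as printed above. GCGCATGCG, the core of the NRF1 motif, was in STX1A, NAPA and BSN (9.38%, all genes 2.80%). CACGTG was in NAPA and UNC13A (6.25%, all genes 8.86%), and TGACGTCA, the full cyclic AMP response element, and TTTCGCGC, an E2F motif, were in none (all genes, 2.76% and 0.815%). CACGTG, TGACGTCA and GCGCATGCG read the same or nearly the same on both strands, and a letter match is not a bound site.

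RE1, the element to which the repressor REST binds in cells outside the nervous system and the islet, was searched by its left and right ends, TTCAGCACC and GGACAG, set 2 bases apart. With up to 2 mismatches it was in the 300-base promoter of RPH3A alone (3.13%, all genes 0.209%). After this was seen, the search was widened to 2 kb on either side of each canonical start. An exact match was then found at 2 of the 40 genes, SNAP25 and SYT4 (5%, all genes 0.200%), and a match with at most 1 mismatch at 6 (15%, all genes 0.724%). With up to 2 mismatches SYT13, CADPS and RAB27B were added (22.5%, all genes 2.82%). The 6 closest matches are given here from hg38 as the strand that carries them reads, 5′ to 3′, with the matching bases of both ends in capitals and the spacer and mismatches in lower case, because they are the matches on which these counts rest.
SNAP25, chr20:10219672-10219688, plus strand: TTCAGCACCggGGACAG
SYT4, chr18:43277297-43277313, minus strand: TTCAGCACCtcGGACAG
SYT5, chr19:55180204-55180220, minus strand: aTCAGCACCcgGGACAG
CPLX2, chr5:175871892-175871908, minus strand: TTCAGCACCacGGAgAG
PCLO, chr7:83161359-83161375, plus strand: TTCAGaACCacGGACAG
RPH3A, chr12:112791552-112791568, minus strand: gTCAGCACCacGGACAG
All 6 matches touched an H3K4me3 region. The same was not counted for the matches of all genes, so this count has no background to be set beside. Those of SNAP25 and SYT4 lay 850 bp and 185 bp after the canonical start, inside regions of level 169 and 173, and that of PCLO 1517 bp after it, inside its region of level 127. The matches of SYT5 and CPLX2, at 77 bp and 322 bp after the start, lay inside regions of lower level, 15.6 and 22.1. That of RPH3A lay 188 bp before the start, with only 1 of its 17 bases inside the region. Genes with a close RE1 match stood at both ends of the range of levels. Binding of REST was not measured in these samples.

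Beyond their promoters, 25 of the 40 genes held regions more than 2 kb from any annotated start of the same gene, 234 in all. Starts of other genes that lie inside these genes were not taken into account, so some regions may belong to other genes. The long genes CADPS and RIMS2 held 43 and 42 of them, RAB3C 18 and UNC13B 17. The strongest of these was in UNC13B, with a level of 47.2, centred 75578 bp after the canonical start. RAB3B had a level of 44.5 at 20992 bp after its start, beside 42.8 at its promoter region, the only gene in which a region away from the starts was higher than the promoter region. SNAP25 had 37.1 at 45665 bp. Over the 25 genes, the highest such region had a median level of 16.4. Regions away from starts were not counted over all genes, so these numbers have no background to be set beside.

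Another 88 annotated genes of the same pathway, listed as further syntaxins, SNARE binding proteins, synaptotagmins, RAB partners, liprins and exocyst subunits, were described beside the list. A region was found for 73 of them (83.0%), with a median level of 54.5 and a median of 19.0 counts per kb. Of these, 42 were above the gene median and 9 in the top 10% of genes. RIMBP2, which links RIM proteins to calcium channels, had the highest level of them, 302 (33.4 counts per kb). STXBP5L (tomosyn-2) had 183 (29.9 counts per kb). No region was found for 15, among them the synaptotagmins SYT3, SYT6, SYT12 and SYT15, the granuphilin gene SYTL4, UNC13D, CPLX3, CPLX4 and the last synapsin gene SYN3.

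Markers of the labelled cell type carried the mark. Of 15 beta cell genes 14 had a region, with a median level of 231 and 10 of them in the top 10% of genes. PAX6, NKX2-2, NEUROD1, PDX1 and SLC30A8 were among those 10. INS itself had 24.7, in a region shared with IGF2 and INS-IGF2, IAPP had 6.94, and no region was found for MAFA. Of 5 acinar genes 3 had a region, at levels of 1.12 to 4.17, and of 4 fibroblast genes 2, at 4.37 and 8.82. Of the immune genes PTPRC and CD3E had none, and CD14 and CD68 had 26.9 and 97.1, the latter in a region shared with MPDU1. All 5 neuronal genes had a region, but their levels differed widely, from 10.96 at RBFOX3 to 280.0 at GAD2. RBFOX3 and SLC17A7 lay below the gene median, and NEFL, MAP2 and GAD2 above it. Of these genes only GAD2 was in the top 10% of genes. Whether the genes of this list are specific to neurons was not tested. Of the alpha cell genes GCG had 5.30, while IRX2 and TTR had 61.8 and 132.6. The duct genes ranged from 3.54 to 24.1, both delta cell genes, SST and HHEX, had regions at 21.9 and 30.7, and of the endothelial genes CDH5 had none while PECAM1 and KDR had 17.6 and 27.3.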

How the data were processed

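H3K4me3 MINT-ChIP was done in 8 samples of EndoC-βH3 cells. Per the methods and labels, the authors used Bowtie2 (hg38) for alignment and SAMtools for further handling, HOMER for peaks and DESeq2 for the comparison of regions. The deposited table holds 97545 regions, each with a signal value, the authors' mean over samples of normalized read counts. Its remaining columns hold the authors' comparison of senescent with non-senescent cells (a log2 fold change, its error, a statistic and p-values) and were not used, so no test was made. How peaks were merged, reads counted and duplicates treated is not given in the sources used here, and depth per sample is unknown.

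Regions were linked to 20020 protein-coding genes of GENCODE release 44 when they shared a base with the 2 kb either side of the start of any protein-coding transcript, and the region with the highest level was kept. Coordinates are those of the table, and width is end minus start. Levels were divided by width for counts per kb. Promoters of other genes within 0.32 in log2 level, 1 per region and none of them an exocytosis gene's, served for comparison of width, GC content, CpG and number of regions. GC content and copies of 24-base stretches came from the hg38 sequence, and promoter sequences from the RefSeq table. Python 3.11.15, numpy 2.4.6, pandas 2.3.3 and scipy 1.17.1 were used, and linking was tested on simulated regions. All 40 genes are named, by role. The genes, the pathway and marker lists and the motifs were chosen with earlier results of these data known. Other windows, start sites, region choices, scales and limits of similarity were tried.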

Additional observations from a re-analysis of the deposited data

How the results depend on the processing

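The results rest on a single mean per region, with no value per sample, no depth and no spread, so a level has no error and no difference between senescent and non-senescent samples was examined. No paired analysis was possible because the table used holds no values per sample. For the same reason no sample could be left out in turn. Across 38 recalculations of 7 results, the counts of exocytosis genes stayed within 1.5 times the reported ones in each case, and a region was found for 39 genes with windows of 1 and 5 kb, with canonical starts only and with the starts of all transcripts, a setting added after seeing the data. Genes above the gene median numbered 16 to 20. These counts are out of 39, except 16 of 35 without regions under a level of 10 and 19 of 34 without genes that share a region. The median level of 49.7 became 39.3 with canonical starts only, 47.4 with the region nearest a start, 52.5 with the sum of all regions, 48.6 without genes that share a region, 54.2 without regions under a level of 10, and 18.2 as a count per kb. Against these stood gene medians of 48.9, 45.8, 56.2, 42.0, 58.2 and 19.0. The exocytosis median was below the gene median with canonical starts, with the sum, without low regions, per kb and, at an unchanged 49.7 against 50.4, with windows of 1 kb. Canonical starts lowered 6 genes (DOC2A, CPLX1, CPLX2, RIMS1, RAB27A and RAB27B) and the nearest region 4 (STX1A, SYT7, CADPS and RAB3B). Genes with more regions than the median of promoters of similar level fell from 19 to 13 with windows of 1 kb. The 19 are the genes with more than 1 region in their windows. No share over all genes was computed for windows of 1 kb.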
